A study of Orbilia oligospora with 9 samples.

Results

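The genes described here are 62 protein kinase genes of the nematode-trapping fungus Orbilia oligospora (also called Arthrobotrys oligospora). They are the loci with a locus tag whose Pfam annotation names a protein kinase domain and whose KEGG annotation places them in none of 6 maps (ko04011, ko04111, ko04138, ko04139, ko04144 and ko04141). The deposited table lists 12901 loci, of which 114 tagged ones carry the domain, and the other 52 of these lie in at least 1 of the excluded maps. No measured value was used to choose the 62 genes.

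Protein kinases transfer a phosphate from ATP to other proteins and so switch their activity, place or stability. Fungal kinases fall into families by the sequence of the catalytic domain. AGC kinases act downstream of lipid and nutrient signals and in polar growth, CAMK kinases respond to calcium or energy state, CMGC kinases act in the cell cycle, transcription and splicing, and STE kinases relay signals to the cytoskeleton and to MAP kinases. Kinase activity is mostly set after translation, so a transcript level is not a measure of it.

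RNA-seq was performed on hyphae of strain ATCC 24927 and of mutants, grown on tryptone yeast glucose agar (TYGA) at 28 °C for 5 days. Every sample carries the same treatment label, aerial hyphae differentiation. The 9 libraries form 3 groups of 3: WT, the Aomdv1 mutant and the Aovps1 mutant. Mdv1 is known from budding yeast as an adaptor that brings a dynamin-related protein to mitochondria, and Vps1 as a dynamin-related protein of vacuolar and endosomal traffic. The sample labels call both mutants knockdowns, the series' design calls them deletion mutants, and whether each is 1 transformant is not given in the sources used here. The replicates are called biological without a stated origin, which means that a p-value reflects the spread among libraries that may be technical.

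Transcripts of both targeted genes were present in the libraries labelled as their mutants. The MDV1 gene AOL_s00097g206 stood at 121.2 ± 10.51 FPKM in WT (SD, n = 3) and at 109.1 ± 23.5 in the Aomdv1-labelled libraries (limma log2 fold change −0.17, adjusted p = 0.768). The VPS1 gene AOL_s00007g394 stood at 87.06 ± 16.7 in WT and at 37.94 ± 13.39 in the Aovps1-labelled libraries (−1.23, adjusted p = 0.0421). It was also below WT in all 3 Aomdv1-labelled libraries, at 44.01 ± 9.949 (−0.97, adjusted p = 0.117), and the difference between the mutants was −0.26 (adjusted p = 0.79). The libraries are therefore named by their labels throughout. FPKM, the unit of the table, counts fragments scaled to transcript length and to the size of the library, and the depth estimated from its steps was 15900000 to 19400000 fragments per library. At the median span of the 62 genes, an FPKM of 1 stands for about 33.1 to 40.4 fragments. Fragment numbers here and below use the genomic span, so they can be too high for genes with introns.

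Library 3 labelled Aomdv1 mutant stood apart from the rest, and the kinase genes were among the loci it touched. Of the 54 kinase genes that passed the filter of FPKM 1 or more in at least 3 libraries, 33 had their lowest value of all 9 libraries there (61.1%, against 28.1% of all tested loci). Their median distance from the other 2 libraries of that label was −1.28 on the log2 scale, against −0.12 over all loci. In this library 16 of the 54 were more than 4-fold below the mean of the other 2, as were 8.98% of all loci. The 62 genes together held 0.101% of the summed FPKM in it and 0.22 to 0.32% in the other 8 libraries.

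The distance moved with gene span. Over all tested loci, the median difference of this library from the other 2 of its label went from 0.33 in the shortest of 5 classes of nearly equal size through 0.2, −0.05 and −0.31 to −0.65 in the longest. The kinase genes are long, with a median span of 2081 bp (494 to 4610), and their medians in the 3 longest of these classes, by rising span, were −0.12 (10 genes), −1.27 (18 genes) and −1.78 (22 genes). Within the 2 longest classes the kinase genes were thus further below than loci of like span. Library 3 of WT had a slope of the same sign, from 0.48 to −0.12 over all loci, with a correlation to log2 span of −0.47 across the kinase genes (n = 54 genes of the same 3 libraries). Each Aomdv1 mean below includes this library, and what set it apart was not tested.

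**Figure D1:**
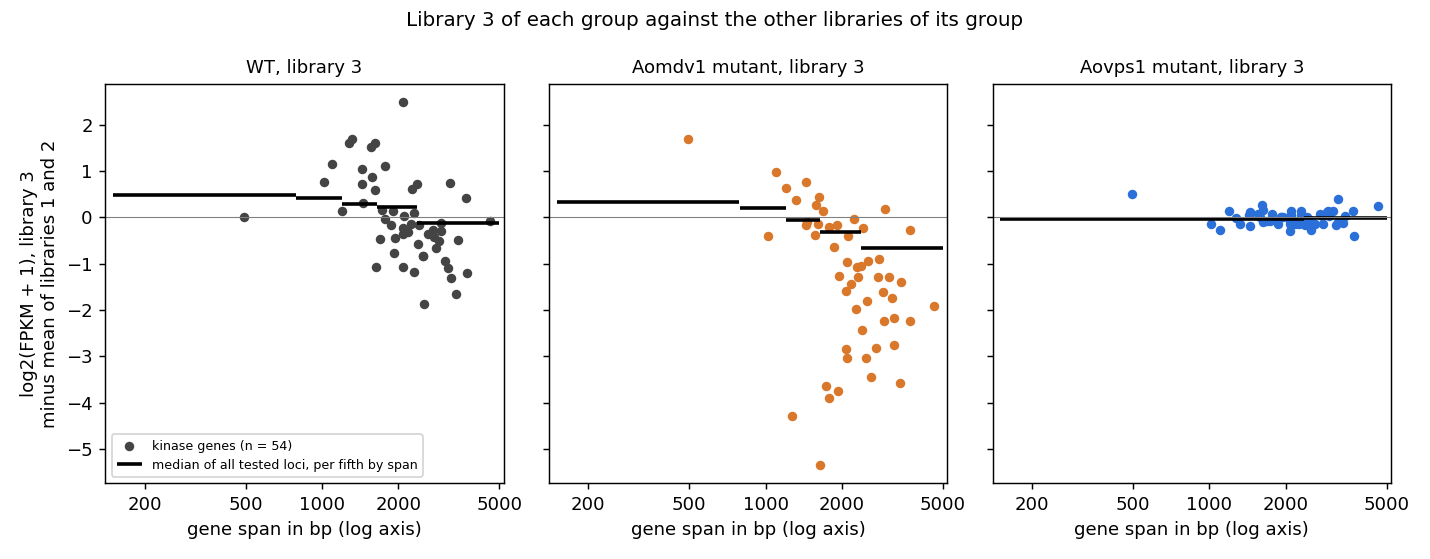
Difference on the log2(FPKM + 1) scale between library 3 and the mean of libraries 1 and 2 of the same group, for the 54 tested kinase genes (points), against gene span in bp on a log axis. Black bars give the median of all tested loci in each of 5 classes by span. In the Aomdv1 panel, 16 genes lie below −2, while in the Aovps1 panel the points lie close to 0.

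The spread among libraries differed accordingly. The median SD of the kinase genes on the log2 scale was 0.81 among the Aomdv1-labelled libraries (0.52 for all loci), 0.42 in WT (0.45) and 0.11 among the Aovps1-labelled libraries (0.19). An SD above 1 was found for 22 kinase genes in the Aomdv1 group, for 4 in WT and for 0 in the Aovps1 group. The widest was that of the ksp1-like gene AOL_s00079g324, at 219.05, 258.03 and 4.87 FPKM in Aomdv1 libraries 1, 2 and 3.

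All 62 proteins were annotated with the kinase domain as their single Pfam family (0 with a second one). Of the genes, 52 had a Swiss-Prot hit, to 47 different entries, and 33 hit an entry of fission yeast. By the family of that hit, 17 were CMGC, 9 CAMK, 7 AGC, 4 STE and 1 CK1, and 14 belonged to other named kinases. The remaining 10 had no hit and are given by their locus tag. Names below, such as "nimA-like", come from these hits. Although 51 genes carried a KEGG ortholog, 10 of them had only the generic protein kinase entry K08286, and 3 genes had any KEGG map at all.

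Several ortholog names contradicted the Swiss-Prot hit. The ran1-like gene was assigned to the ortholog PRP4, the oca2-like gene to WDR48 and the shk1-like gene AOL_s00173g205 to polo-like kinase 4, so the hits and not the ortholog names were used. The 62 genes lie on 22 scaffolds and their coordinates equal those of the RefSeq assembly AOL24927 1.0. There were 4 pairs of near neighbours with 1 to 3 loci between them. The closest was the YPL150W-like gene AOL_s00215g463 and the ppk11-like gene AOL_s00215g465, 5309 bp apart. The others were protein kinase C-like with nrc-2-like (9866 bp), cmkC-like with hal4-like (10653 bp) and prp4-like with ran1-like (12512 bp).

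In WT hyphae most of these kinases were transcribed at a moderate level. Their median of mean WT FPKM was 22.74, against 14.5 for the 52 kinases in the excluded maps and 13.96 for all 11144 tagged loci. There were 6 genes at 100 FPKM or more, 36 between 10 and 100, 12 between 1 and 10, and 8 under 1. The 10 highest made up 63.8% of the summed level. Genes with a Swiss-Prot hit had a median of 27.32 and the 10 without one a median of 2.867. By family the medians were 40.4 for AGC, 34.6 for CAMK, 25.14 for CMGC and 12.19 for STE.

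The highest mean belonged to the ran1-like gene AOL_s00004g277, whose fission yeast counterpart blocks mating and meiosis while nutrients last. It was measured at 191.3, 422.3 and 878.9 FPKM in WT libraries 1, 2 and 3 (mean 497.5 ± 349.9, SD, n = 3), a spread wider than the gap to the gene ranked next. The srk1-like gene AOL_s00080g218, a target of the stress MAP kinase in fission yeast, was at 474.6, 516.2 and 135.0. WT library 3 was thus the highest for ran1-like and the lowest for srk1-like. The calmodulin-dependent kinase gene cmkA-like (AOL_s00078g95) had 203.6 ± 64.06 FPKM.

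Lower in the order came gad8-like (AOL_s00054g25), in fission yeast the kinase under TORC2, at 138.4 ± 23.4. The ksp1-like gene, whose budding yeast counterpart acts in filamentous growth and nutrient signalling, followed at 122.3 ± 46.79. The nimA-like gene AOL_s00176g88, a kinase of mitotic entry in Aspergillus, had 113.3 ± 17.99. After these came SPCC70.05c-like (AOL_s00112g24, 99.4 ± 14.94), ppk13-like (AOL_s00188g210, 90.2 ± 67.24), the second calmodulin-dependent kinase cmkB-like (AOL_s00083g485, 88.05 ± 40.55) and the polarity kinase CBK1-like (AOL_s00006g105, 65.03 ± 16.3). The WT libraries of each of these 10 genes overlapped with those of the next in the order.

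At the other end, 8 genes failed the filter. They were SKY1-like (AOL_s00054g985), 1 of the 2 dsk1-like genes (AOL_s00079g461), 1 of the 3 ppk23-like genes (AOL_s00088g9), the cell division protein kinase-like gene AOL_s00091g15 and 4 genes without a hit. Of these, 7 stayed under FPKM 1 in every library, the highest value being 0.6, and AOL_s00193g189 passed 1 only in WT library 3, at 2.43. No kinase gene was listed at 0 in all 9 libraries.

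**Figure D2:**
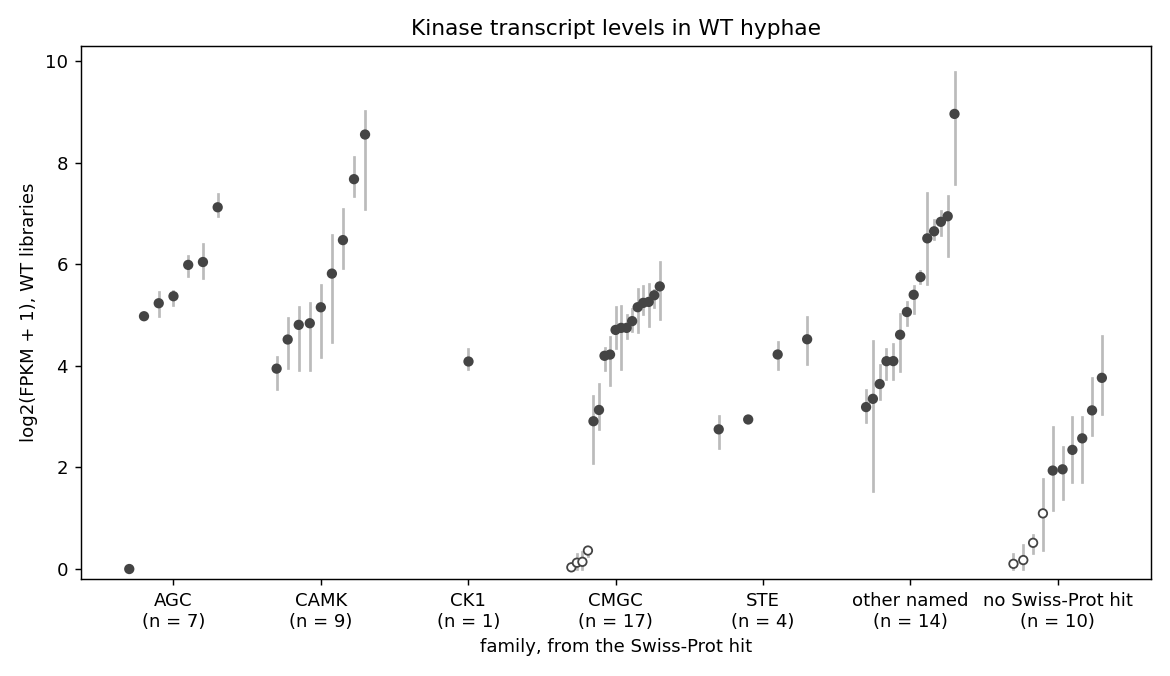
Transcript level in WT as log2(FPKM + 1) for the 62 kinase genes by family. Points stand for the mean FPKM of 3 libraries, grey lines run from the lowest to the highest library, and open points mark the 8 genes that failed the filter. The groups AGC, CAMK and other named hold all of the 10 highest genes, and long lines such as that of ran1-like, the highest point, span more than 4-fold.

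The first comparison asks which kinase transcripts differ between the Aomdv1-labelled libraries and WT. A single gene passed the threshold (limma on log2(FPKM + 1), adjusted p under 0.05 over 10318 loci): AOL_s00007g58, a kinase gene with no Swiss-Prot hit, was lower. That is 1 of 54 tested kinase genes, or 1.85%, where 9.84% of all tested loci were called. By direction, 0 kinases were called higher, against a background of 5.62%, and 1 lower, against 4.22%. At an unadjusted p under 0.05 there were 6 kinase genes, 11.1% of those tested, where the background was 22.8%. The Aomdv1 and WT libraries were fully separated in 8 kinase genes, 4 higher and 4 lower, or 14.8%, against 22.1% of all loci (13.5% higher and 8.56% lower). They include AOL_s00007g58, the single called gene, which passed the filter through the WT libraries alone and so could only be lower in the mutants. They also include the DBF2-like gene AOL_s00188g190, which passed it through mutant libraries alone. The median log2 fold change of the kinase genes was −0.12, that of all loci 0.08. In bulk RNA, fewer hyphal cells of a type and less transcript per cell cannot be told apart.

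Leaving out library 3 changed this account. Without it 3 kinase genes were called higher and 2 lower, with a background of 11.7% (7.52% higher and 4.18% lower), and the kinase median went from −0.12 to 0.32 (all loci 0.18). The 3 higher genes were oca2-like (AOL_s00006g439, log2 fold change 1.06, adjusted p = 0.0326), ppk15-like (AOL_s00043g4, 1.02, adjusted p = 0.0386) and AOL_s00054g978 (1.56, adjusted p = 0.0265). The nimA-like gene joined AOL_s00007g58 among the lower ones (−1.42, adjusted p = 0.00648). With WT library 3 left out as well, 8 kinase genes were called higher and 2 lower, at a background of 26.5% (19.5 and 6.97%).

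The second comparison sets the Aovps1-labelled libraries against WT. Here 3 kinase genes were called higher and 1 lower, together 7.41% of the 54, where 13.8% of all loci were called (8.61% higher and 5.21% lower). The higher ones were the shk1-like gene AOL_s00173g205, and AOL_s00169g271 and AOL_s00079g112, neither of these with a hit. The shk1-like gene is named for a p21-activated kinase that steers cell polarity. Its KEGG ortholog contradicted that name, and no domain besides the kinase domain was annotated, as for all the genes described here. The lower one was again AOL_s00007g58, which passed the filter through the WT libraries alone. Of the 54 kinase genes 37 had a positive log2 fold change, as had 6772 of all 10318 loci, and the medians were 0.47 and 0.30. With quantile scaling these medians were 0.20 and 0.08, and with median-ratio scaling 0.12 and −0.00. The order turned without WT library 3 (0.32 for the kinase genes and 0.37 for all loci) and without libraries 3 of both WT and Aomdv1 (0.31 and 0.38).

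The 3 Aovps1 libraries were entirely above or below the 3 WT libraries in 33 kinase genes (24 higher, 9 lower). That is 61.1%, where 46.0% of all loci were so separated (33.0% higher and 13.0% lower). Of the 44 tested kinases in the excluded maps, 68.2% were so separated. Among the 33 separated kinase genes are AOL_s00007g58, which passed the filter through WT alone, and DBF2-like, which passed it through mutant libraries alone. At an unadjusted p under 0.05 there were 18 kinase genes, or 33.3%, close to the background of 30.5%. Since all 3 groups share 1 estimate of the spread for each gene, the wide Aomdv1 group enters here too. A fit of only the Aovps1 and WT libraries called 10 kinase genes higher and 5 lower, at a background of 24.6% (17.1 and 7.5%). A fit with both mutants that left out Aomdv1 library 3, chosen after seeing the data, called 10 and 6, at 25.3% (17.5 and 7.79%). Leaving out WT library 3 gave 8 and 1, at 21.1% (15.7 and 5.42%), and leaving out both libraries 16 and 8, at 44.1% (33.3 and 10.8%). The scaling of the libraries moved the count too. Quantile scaling gave 0 higher and 4 lower, at 13.2% (6.43 and 6.82%), and median-ratio scaling 0 and 3, at 12.9% (5.43 and 7.45%). Several genes are given below as called higher only when a library was left out. With all libraries kept, none of them was called higher under either scaling.

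**Figure D3:**
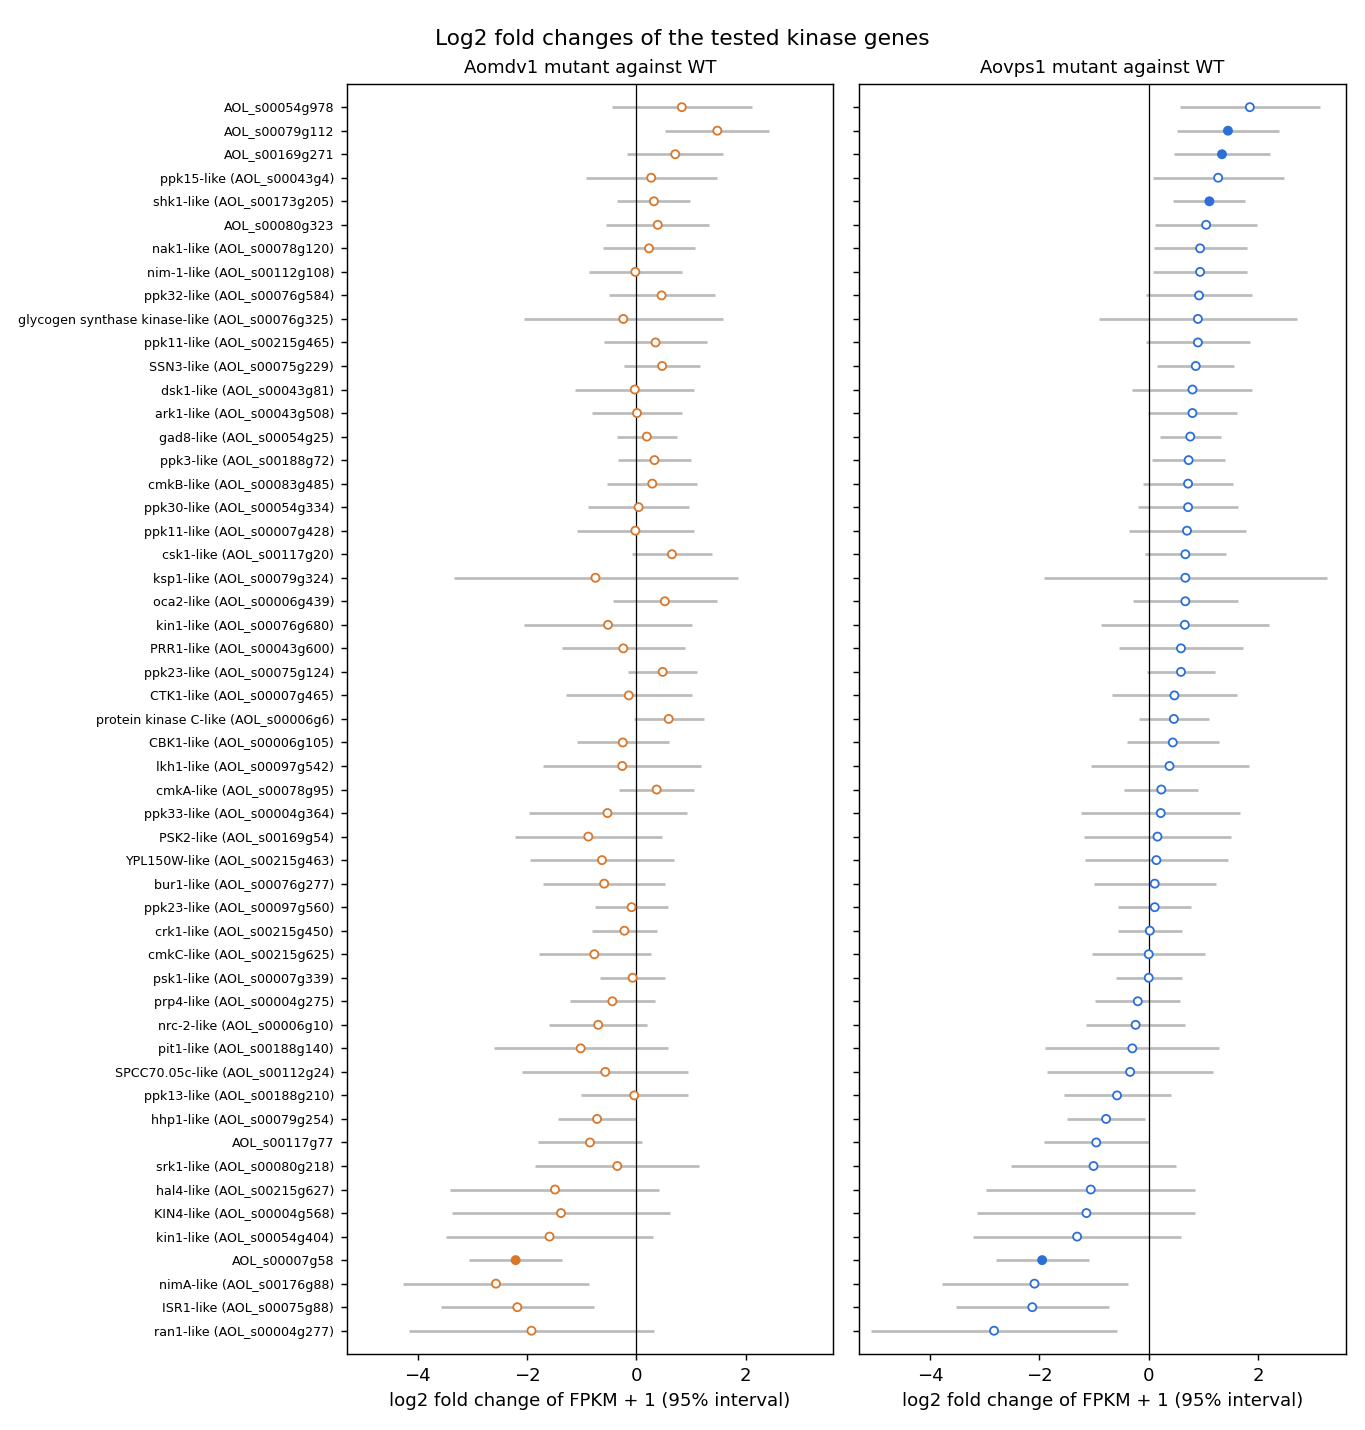
Log2 fold change of FPKM + 1 against WT for 53 of the tested kinase genes, in Aomdv1-labelled (left) and Aovps1-labelled libraries (right), with 95% intervals from limma as grey lines and genes in the order of the Aovps1 value. Filled points mark an adjusted p under 0.05: AOL_s00007g58 in both panels, and shk1-like, AOL_s00169g271 and AOL_s00079g112 on the right. The DBF2-like gene is not drawn because it is listed at 0 in every WT library.

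The gene called in both comparisons, AOL_s00007g58, lies on scaffold NW_011645564.1 from 165959 to 166978 on the minus strand. Its FPKM was 2.30, 5.63 and 6.92 in WT, 0.57, 0.12 and 0 in the Aomdv1-labelled and 0.11, 0.99 and 0.36 in the Aovps1-labelled libraries. Each mutant library was below each WT library. The log2 fold change was −2.21 (SE 0.38, adjusted p = 0.00473) in the former and −1.95 (SE 0.38, adjusted p = 0.00839) in the latter. Both mutants were compared with the same 3 WT libraries. The level is low, at an estimated 45, 103 and 121 fragments in WT, and the gene passed the filter through the WT libraries alone, so it could enter the test only by being higher there. It left the test when any WT library was removed.

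Among the genes called higher in the Aovps1-labelled libraries, shk1-like AOL_s00173g205 (NW_011645730.1, 689020 to 692715, plus strand) had 5.88, 4.23 and 7.08 FPKM in WT and 13.45, 12.20 and 14.21 in Aovps1. The Aomdv1-labelled libraries, at 7.23, 8.40 and 6.26, overlapped with WT. Its log2 fold change was 1.11 in Aovps1 (SE 0.30, adjusted p = 0.0357) and 0.32 in Aomdv1 (adjusted p = 0.595).

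AOL_s00169g271 (NW_011645726.1, 913286 to 915058, plus strand) had 5.36, 5.22 and 12.57 FPKM in WT, 18.19, 9.07 and 11.12 in Aomdv1 and 20.36, 18.26 and 20.37 in Aovps1. WT library 3 was the highest of WT and lay inside the Aomdv1 range. The log2 fold change was 1.34 in Aovps1 (SE 0.39, adjusted p = 0.0475) and 0.71 in Aomdv1 (adjusted p = 0.327). AOL_s00079g112 (NW_011645636.1, 319477 to 320574, minus strand) had 2.30, 2.94 and 7.01 in WT, 9.75, 9.14 and 19.54 in Aomdv1 and 11.18, 14.28 and 10.40 in Aovps1. Both mutants were above WT in every library. It reached an adjusted p of 0.0472 in Aovps1 (1.45, SE 0.42) and of 0.055 in Aomdv1 (1.48, SE 0.42).

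These 3 calls were close to the threshold. All 3 were lost under quantile scaling (adjusted p = 0.096 to 0.12), under median-ratio scaling (0.082 to 0.103) and without any single Aovps1 library (0.1 to 0.16). They were also lost without WT library 1 (0.0814 to 0.147) or WT library 2 (0.141 to 0.181), and held without WT library 3. With no filter on low values shk1-like stayed called (0.0496) and the others did not (0.0692 and 0.0651).

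**Figure D4:**
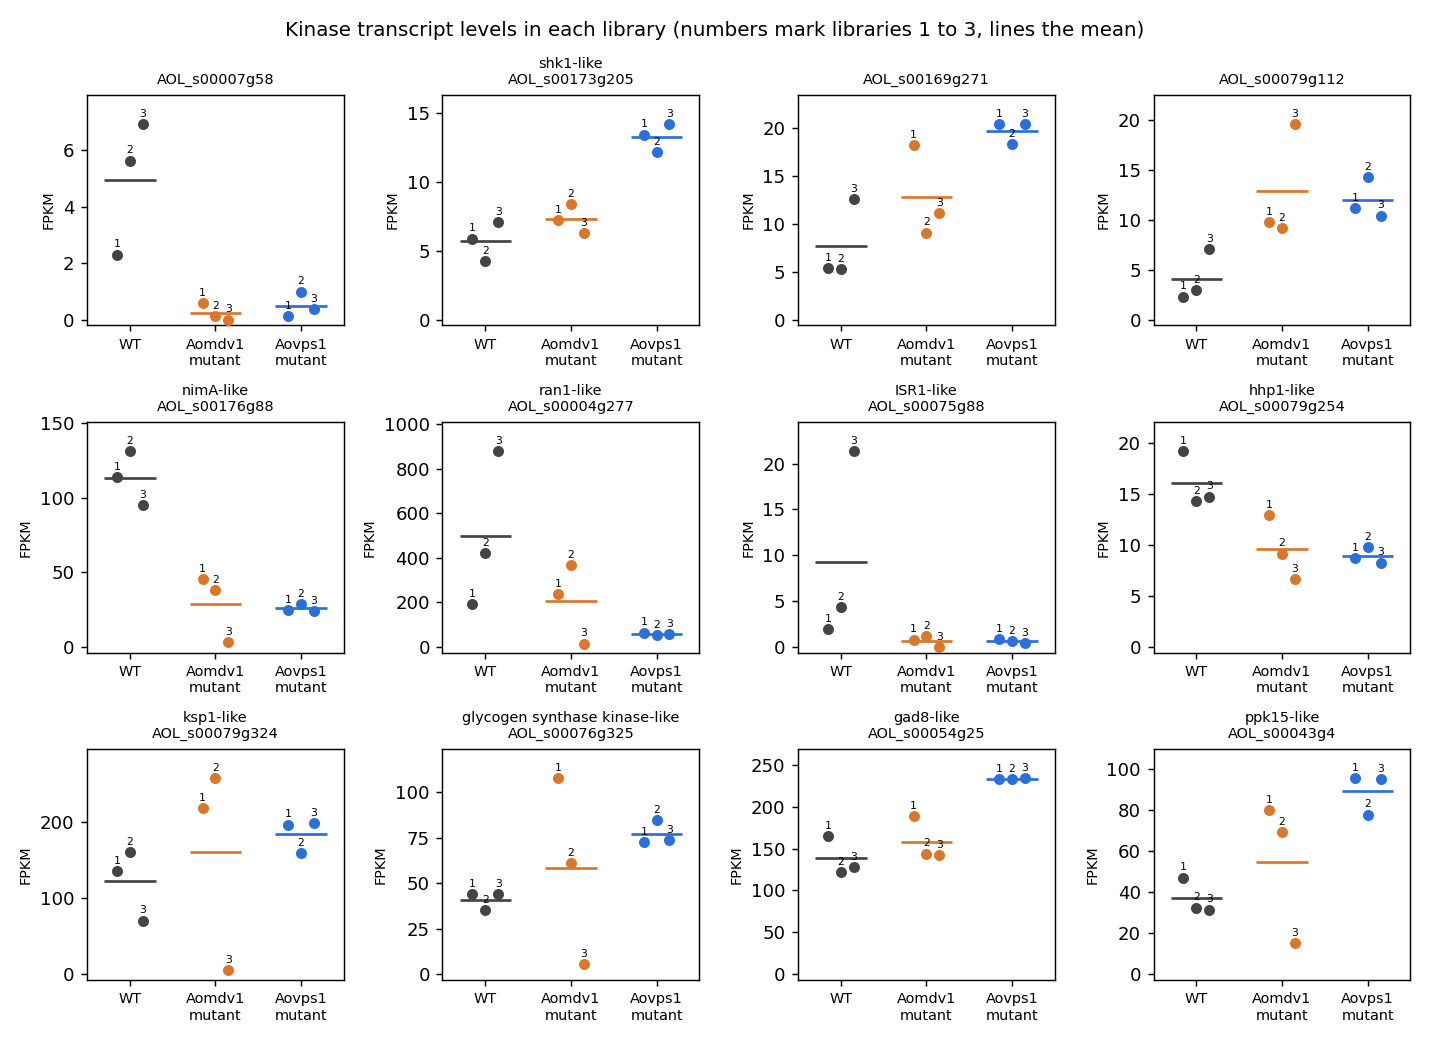
FPKM of 12 kinase genes in each library, with numbers for libraries 1 to 3 and a line at the group mean. The top row holds the 4 called genes. In the middle and bottom rows, Aomdv1 library 3 is the lowest of all 9 for nimA-like, ran1-like, ISR1-like, hhp1-like, ksp1-like, glycogen synthase kinase-like and ppk15-like, and the Aovps1 libraries lie close together.

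Among the kinases of the cell cycle and of the choice between growth and meiosis, the nimA-like gene was at 113.64, 131.05 and 95.08 FPKM in WT, at 45.26, 37.91 and 2.89 in Aomdv1 and at 24.63, 28.68 and 23.95 in Aovps1. Every mutant library was below every WT library, yet the adjusted p was 0.0637 (−2.57, SE 0.77) and 0.0984 (−2.09, SE 0.77). Without Aomdv1 library 3 it passed in both comparisons, with an adjusted p of 0.00648 in Aomdv1 and 0.000298 in Aovps1. Its Aovps1 mean was 22.7% of the WT mean.

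The ran1-like gene was at 236.34, 365.72 and 14.12 FPKM in Aomdv1 and at 63.21, 52.75 and 56.88 in Aovps1, against 191.3 to 878.9 in WT. The 3 Aovps1 libraries and Aomdv1 library 3 lay below every WT library. The log2 fold change was −2.83 there (95% interval −5.08 to −0.58, adjusted p = 0.0906), and −1.92 in Aomdv1 (adjusted p = 0.301). The Aomdv1 value rested on library 3 and was −0.49 without it (adjusted p = 0.618). In the fit without Aomdv1 library 3 the Aovps1 value had an adjusted p of 0.00314.

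The second NIMA-type gene, nim-1-like (AOL_s00112g108), had a log2 fold change of the other sign in Aovps1 (0.94, adjusted p = 0.132) from 19.20, 12.46 and 16.51 FPKM in WT to 29.81, 31.84 and 32.04. Without Aomdv1 library 3 it was called (adjusted p = 0.0398). The Aurora-type ark1-like gene (AOL_s00043g508), a kinase of chromosome segregation, had 32.92, 26.87 and 37.33 in WT and 49.96, 61.01 and 59.72 in Aovps1 (0.80, adjusted p = 0.175). In both genes the Aovps1 libraries were above WT and the Aomdv1 libraries overlapped with it. The csk1-like gene (AOL_s00117g20), in fission yeast an activator of cyclin-dependent kinases, had values of 5.75 to 11.58 in WT, 10.31 to 13.97 in Aomdv1 and 12.35 to 12.42 in Aovps1. It was called higher in both mutants without WT library 3 (0.94 and 0.97, adjusted p = 0.0478 and 0.0337). The pit1-like gene (AOL_s00188g140), a meiotic kinase of fission yeast, had 1.19 FPKM in Aomdv1 library 3 and 11.26 to 22.76 in the other 8.

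The DBF2-like gene AOL_s00188g190, named for a kinase of mitotic exit in budding yeast, is listed at 0 in all WT libraries. Its span of 494 bp is the shortest of the 62 genes. It is listed at 0.43, 0.29 and 3.42 FPKM in Aomdv1 and at 1.09, 0.52 and 1.53 in Aovps1. These values stand for an estimated 2 to 27 fragments per library, near the floor. It passed the filter through 3 mutant libraries alone and was not called (adjusted p = 0.199 and 0.151), though with a pseudocount of 0.1 it was (0.0453 and 0.0276). The casein kinase I gene hhp1-like (AOL_s00079g254), in fission yeast a kinase of DNA repair and of the mitotic checkpoint, was at 19.14, 14.28 and 14.71 in WT. It was lower in all 6 mutant libraries, at 12.86, 9.11 and 6.65 in Aomdv1 and 8.67, 9.73 and 8.24 in Aovps1 (log2 fold change −0.72 and −0.78, adjusted p = 0.209 and 0.131). It was called in Aovps1 with quantile scaling (adjusted p = 0.0208) and with median-ratio scaling (0.0344).

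All 4 STE genes had their 3 Aovps1 libraries above WT, where 33.0% of all loci were so separated, and 1 of them, shk1-like, was called (8.61% of all loci were called higher). The nak1-like gene (AOL_s00078g120), of the network that orients growth in fission yeast, had 14.25 to 21.22 FPKM in WT and 31.83 to 36.75 in Aovps1 (0.94, adjusted p = 0.13, and 0.0206 without Aomdv1 library 3). The 2 ppk11-like genes had log2 fold changes of 0.70 (AOL_s00007g428) and 0.90 (AOL_s00215g465), with adjusted p = 0.358 and 0.186. In Aomdv1 the STE genes ranged from −0.02 to 0.35 with 0 called (9.84% of all loci were called).

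Of the 7 AGC genes 0 were called in either mutant, where 9.84% of all loci were called in Aomdv1 and 13.8% in Aovps1. The gad8-like gene came nearest, at 165.22, 122.33 and 127.56 FPKM in WT and 233.00, 233.27 and 234.14 in Aovps1 (0.76, SE 0.25, adjusted p = 0.0694). Its Aovps1 libraries lay above those of both other groups and within 2 FPKM of each other. Without Aomdv1 library 3 the adjusted p was 0.0314. The protein kinase C-like gene (AOL_s00006g6) is named for a kinase of the cell wall integrity pathway. It spans only 1198 bp and, like all the genes described here, was annotated with the kinase domain alone. Its place in that pathway is not known. This gene had 35.59 to 43.30 in WT, 44.95 to 82.16 in Aomdv1 and 50.57 to 59.41 in Aovps1 (0.59 and 0.46, adjusted p = 0.262 and 0.313). Its highest value of all 9 was that of Aomdv1 library 3, where most kinase genes had their lowest.

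CBK1-like, a kinase of polarity and septum in yeasts, had log2 fold changes of −0.25 and 0.44 (adjusted p = 0.752 and 0.462). The nrc-2-like gene (AOL_s00006g10), needed in Neurospora to hold back conidiation, had −0.70 and −0.24 (adjusted p = 0.35 and 0.722), with WT at 53.71 to 70.47 FPKM. The psk1-like gene (AOL_s00007g339), a kinase of ribosomal protein S6 in fission yeast, stood at 30.00 to 31.03 in WT and 28.30 to 32.09 in Aovps1. Its 95% interval in Aovps1 was −0.60 to 0.60.

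Among the 9 CAMK genes 0 were called in either mutant, where 9.84% of all loci were called in Aomdv1 and 13.8% in Aovps1. Their medians were −0.63 in Aomdv1 and 0.14 in Aovps1 (all loci 0.08 and 0.30). The 2 kin1-like genes, named for a fission yeast kinase of cell polarity, differed from each other. AOL_s00054g404 had 21.48, 29.87 and 14.44 FPKM in WT, 13.65, 19.81 and 0.29 in Aomdv1 and 8.54, 7.25 and 7.86 in Aovps1. Its Aovps1 libraries were all below WT (−1.31, SE 0.86, adjusted p = 0.331, and 0.015 without Aomdv1 library 3). AOL_s00076g680 had 16.99 to 47.10 in WT and 48.48 to 52.37 in Aovps1 (0.66, adjusted p = 0.555).

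The KIN4-like gene (AOL_s00004g568), a spindle position kinase in budding yeast, had 49.80, 95.10 and 21.22 FPKM in WT, 28.41, 58.46 and 2.5 in Aomdv1 and 22.30, 20.19 and 19.48 in Aovps1. Only WT library 3 lay within the Aovps1 range. The srk1-like gene had 131.20, 736.12 and 163.20 in Aomdv1 and 213.98, 132.79 and 140.97 in Aovps1, so that Aomdv1 library 2 was the highest of all 9 and the groups overlapped. The PSK2-like gene (AOL_s00169g54), named for a PAS kinase that links sugar supply to storage in budding yeast, was at 0.16 in Aovps1 (95% interval −1.19 to 1.5).

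Of the calmodulin-dependent kinases, cmkB-like was at 69.78, 59.84 and 134.52 FPKM in WT and at 143.39, 142.11 and 124.90 in Aovps1. WT library 3 was inside the Aovps1 range, and the log2 fold change was 0.72 (adjusted p = 0.218). Without WT library 3 it was called (1.07, adjusted p = 0.0495). The cmkA-like gene had 0.37 and 0.23 in the 2 mutants (adjusted p = 0.529 and 0.649). The cmkC-like gene (AOL_s00215g625), which in Aspergillus acts on the other calmodulin-dependent kinases, had −0.77 and −0.00 (adjusted p = 0.37 and 0.999).

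Of the 17 CMGC genes, 13 were tested and 0 were called, where 9.84% of all loci were called in Aomdv1 and 13.8% in Aovps1. Their medians were −0.14 in Aomdv1 and 0.47 in Aovps1 (all loci 0.08 and 0.30). Of these 13, 11 had a positive value in Aovps1 (6772 of all 10318 loci had one), and 6, or 46.2%, had all Aovps1 libraries above WT (33.0% of all loci). The ppk15-like gene, close to the growth-restraining kinase Yak1 of budding yeast, was at 46.88, 32.25 and 31.30 FPKM in WT, at 79.88, 69.04 and 14.91 in Aomdv1 and from 77.57 to 95.16 in Aovps1. The log2 fold change was 1.27 in Aovps1 (SE 0.54, adjusted p = 0.144, and 0.00548 without Aomdv1 library 3). Aomdv1 libraries 1 and 2 lay above WT and library 3 below it.

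The glycogen synthase kinase-like gene (AOL_s00076g325), of the GSK3 type that acts in metabolism and development, gave 43.99, 34.97 and 43.87 FPKM in WT and 107.62, 61.08 and 5.58 in Aomdv1. It gave 72.46, 84.85 and 73.89 in Aovps1 (0.90, SE 0.82, adjusted p = 0.49, and 0.0337 without Aomdv1 library 3). The same pattern as in ppk15-like was seen, with Aomdv1 library 3 the lowest of the 9. The LAMMER kinase gene lkh1-like (AOL_s00097g542) had 22.34 to 31.25 in WT, 43.95, 39.31 and 5.01 in Aomdv1 and 31.23 to 35.23 in Aovps1.

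Of the kinases of transcription and splicing, SSN3-like (AOL_s00075g229), the Mediator kinase, went from 34.86, 24.44 and 44.63 FPKM in WT to 59.00, 68.10 and 59.13 in Aovps1 (0.86, SE 0.32, adjusted p = 0.0971). Its Aovps1 libraries were all above WT, and it was called without Aomdv1 library 3 (0.86, adjusted p = 0.049) or WT library 3 (1.06, adjusted p = 0.0423). Under quantile or median-ratio scaling of all libraries it was not called. The RNA polymerase II kinases CTK1-like (AOL_s00007g465), bur1-like (AOL_s00076g277) and crk1-like (AOL_s00215g450) had 0.47, 0.11 and 0.02 in Aovps1 and −0.14, −0.59 and −0.22 in Aomdv1 (adjusted p = 0.55 to 0.971). The splicing kinase gene prp4-like (AOL_s00004g275), neighbour of ran1-like, had −0.44 and −0.20 (adjusted p = 0.518 and 0.728). Its WT range of 26.60 to 48.21 FPKM held all 3 Aovps1 values. The tested dsk1-like gene (AOL_s00043g81), a kinase of SR splicing proteins in fission yeast, also had all Aovps1 libraries above WT (0.80, adjusted p = 0.303).

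The other named kinases held nutrient, ion and traffic kinases. The ISR1-like gene (AOL_s00075g88), in budding yeast an inhibitor of the synthesis of chitin precursors, was at 1.90, 4.36 and 21.35 FPKM in WT, 0.77, 1.13 and 0 in Aomdv1 and 0.82, 0.64 and 0.40 in Aovps1. Each mutant library was below each WT library, and the adjusted p was 0.0579 (−2.18) and 0.0508 (−2.13). It was called lower in both with quantile scaling (0.042 and 0.0275) and with median-ratio scaling (0.0422 and 0.036). Its size rested on WT library 3, without which the log2 fold changes were −1.34 (adjusted p = 0.054) and −1.29 (0.047). It reached FPKM 1 in the 3 WT libraries and in 1 mutant library.

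The hal4-like gene (AOL_s00215g627), which in fission yeast acts on potassium uptake, was at 57.81, 48.67 and 51.84 FPKM in WT and at 25.05, 24.68 and 24.35 in Aovps1. The Aovps1 libraries were all under the lowest WT value (−1.06, SE 0.86, adjusted p = 0.438). Aomdv1 gave 35.39, 59.29 and 2.17, a spread that entered the test of both mutants, and without its library 3 the Aovps1 value had an adjusted p of 0.0148. The neighbouring cmkC-like gene did not share this separation.

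The ksp1-like gene had 135.57, 161.09 and 70.36 FPKM in WT and 197.08, 159.63 and 199.35 in Aovps1, overlapping (0.67, SE 1.17, adjusted p = 0.733). The SCY1-type genes of vesicle traffic, ppk32-like (AOL_s00076g584) and ppk3-like (AOL_s00188g72), had 0.92 and 0.73 in Aovps1 (adjusted p = 0.184 and 0.133) and 0.46 and 0.33 in Aomdv1. Both had their Aovps1 libraries above the highest WT value. The oca2-like gene was at 31.83 to 46.34 in WT, 74.61, 98.33 and 27.64 in Aomdv1 and 61.75 to 68.75 in Aovps1 (0.52 and 0.67, adjusted p = 0.529 and 0.32). The ppk13-like and SPCC70.05c-like genes had −0.58 and −0.34 in Aovps1 (adjusted p = 0.409 and 0.769).

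The remaining tested genes were not called either. The ppk23-like gene AOL_s00075g124 had 14.18 to 19.43 FPKM in WT, 21.51 to 29.89 in Aomdv1 and 24.54 to 28.39 in Aovps1, above WT in all 6 mutant libraries (0.48 and 0.59, adjusted p = 0.357 and 0.189). The other tested ppk23-like gene, AOL_s00097g560, stayed within its WT range of 19.53 to 34.68 in all of them. The PRR1-like gene (AOL_s00043g600), of pheromone signalling in budding yeast, had 9.24 to 15.25 in WT and 16.31 to 18.10 in Aovps1, and ppk30-like (AOL_s00054g334) had 12.43 to 20.57 and 24.69 to 28.07. Both were separated from WT in Aovps1 and not in Aomdv1 (adjusted p = 0.467 and 0.272 in Aovps1). The ppk33-like (AOL_s00004g364) and YPL150W-like genes had log2 fold changes of 0.22 and 0.14 in Aovps1 and stood at 5.95 and 2.18 FPKM in Aomdv1 library 3, the lowest of all 9 libraries for each.

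Of the 10 genes with no hit, 6 were tested. In Aovps1 2 were called higher and 1 lower, and all 6 had an unadjusted p under 0.05, where 13.8% of all loci were called and 30.5% had such a p. The lower one is AOL_s00007g58, which entered the test through WT alone. Another of the 6, AOL_s00117g77, reached FPKM 1 in every WT library and in no Aovps1 library, and so entered mainly through WT. Of the 48 tested genes with a hit, 1 was called (2.08%), and the difference from the genes without a hit was not tested. Besides the 3 called genes, AOL_s00054g978 was at 2.82, 1.60 and 4.28 FPKM in WT, 10.47, 9.62 and 1.44 in Aomdv1 and 14.30, 8.90 and 15.37 in Aovps1 (1.85, SE 0.58, adjusted p = 0.0589, and 0.00444 without Aomdv1 library 3). Its Aovps1 value was the highest log2 fold change of the 54. AOL_s00080g323 had 7.27, 7.45 and 23.06 in WT and 21.75 to 24.59 in Aovps1 (1.05, adjusted p = 0.125), with WT library 3 inside the Aovps1 range, and was called without that library (1.55, adjusted p = 0.00603). AOL_s00117g77 had 1.25, 1.33 and 5.92 in WT and 0.42 to 0.94 in Aovps1 (−0.96, adjusted p = 0.163), a value of −0.43 without WT library 3.

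The third comparison sets the mutants against each other. Of the kinase genes 0 were called by limma, as were 0 of all 10318 loci (0.0%), and at an unadjusted p under 0.05 there were 3 kinase genes and 978 loci (9.48%). The 3 were gad8-like (0.57), nim-1-like (0.96) and shk1-like (0.79), each higher in Aovps1. The median over the kinase genes was 0.47 toward Aovps1 (all loci 0.16), and 45 of 54 were above 0, as were 6442 of all 10318 loci. Without Aomdv1 library 3 the kinase median was 0.08 and that of all loci 0.11. In that fit 31 of 53 kinase genes were above 0. The 2 groups did not overlap in 13 kinase genes (12 higher and 1 lower in Aovps1), or 24.1%, near the background of 23.5% (17.4% higher and 6.1% lower).

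For other genes of phosphorylation, the shares called over all loci to read beside the counts are 9.84% in Aomdv1 and 13.8% in Aovps1, and the medians 0.08 and 0.30. Of the 44 tested kinases in the excluded maps, 1 was called higher and 2 lower in Aomdv1 (6.82%) and 7 higher and 1 lower in Aovps1 (18.2%), with medians of 0.02 and 0.60. Of 22 tested protein phosphatase genes, 1 was called in Aomdv1 (4.55%) and 2 in Aovps1 (9.09%), all higher, with medians of 0.16 and 0.57. Of 34 tested genes for kinase partners, such as cyclins, calmodulin and regulatory subunits, 0 were called in Aomdv1 and 3 in Aovps1 (8.82%), all higher, with medians of 0.04 and 0.46. This last list holds 3 members that enter by a cyclic nucleotide-binding or related domain and are no kinase partners by their hit. The share of genes whose Aovps1 and WT libraries did not overlap was above the 46.0% of all loci in each list. It was 68.2% for the kinases in the excluded maps, 54.5% for the phosphatases and 61.8% for the partners. Whether the 62 kinase genes differ from these lists was not tested.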

How the data were processed

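The authors deposited 1 table of FPKM values, rounded to 2 decimals, for 9 libraries (3 per group). Which aligner, counter and annotation version made them is not given in the sources used here. The fragment total of a library was read from the steps between FPKM values at loci under 700 bp. With it 67.1 to 70.9% of those values lay within 0.1 of a whole fragment number (141 values for Aomdv1 library 3, 450 to 532 for the others). This was not enough to recover counts. Spans include introns.

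Values were tested as log2(FPKM + 1) with limma 3.58.1 (limma-trend, two-sided) in R 4.3.3. All 9 libraries entered 1 fit without a block, over the 10318 loci that reached an FPKM of 1 in 3 or more libraries. P-values were adjusted over these loci by the Benjamini-Hochberg method, with a threshold of 0.05. Fold changes are on the log2(FPKM + 1) scale, which understates changes of low genes. An exact permutation test of 3 against 3 cannot go below 0.1. The procedure was tested on simulated data, where it missed many of the changes put in, the smaller ones above all. A gene that was not called is therefore not shown to be unchanged.

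Genes are named when called, when among the 10 highest in WT, or when known from a list of fungal kinases, and others were named after their values were seen. The members, lists and tests were chosen with earlier results of these data known. Alternatives were another pseudocount, filters, scalings, a replicate block, a fit of 2 groups and libraries left out. The pair of libraries numbered 3 left out, and Aomdv1 library 3 left out of the Aovps1 comparison, were added after seeing the data. Protein and promoter sequences were not used here. The table holds 0 columns of other samples and 0 identical pairs of libraries.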

Additional observations from a re-analysis of the deposited data

How the results depend on the processing

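Kinase genes called higher and lower in Aomdv1 (0 and 1 as reported) were 1 and 1 with a pseudocount of 0.1, 0 and 0 at a mean FPKM of at least 5, 0 and 3 with quantile scaling, and 0 and 2 with median-ratio scaling. Leaving out each library in turn gave 0 to 3 higher and 0 to 2 lower, and leaving out libraries 3 of WT and Aomdv1 together, an alternative chosen after seeing the data, 8 and 2. In Aovps1 (3 and 1 as reported) the counts were 1 and 1 with no filter, 3 and 0 at a mean FPKM of at least 5, 0 and 4 with quantile scaling, 0 and 3 with median-ratio scaling, and 10 and 5 in the fit of only the 2 groups. Leaving out each of the 6 libraries compared gave 0 to 8 higher and 0 to 1 lower. Leaving out Aomdv1 library 3 gave 10 and 6, and libraries 3 of WT and Aomdv1 together 16 and 8, both chosen after seeing the data. The calls over all loci moved as well, from 1015 in Aomdv1 and 1426 in Aovps1 as reported. Leaving out 1 compared library gave 515 to 1392 and 586 to 2122 loci. The other pseudocount, filters and scalings gave 719 to 1056 and 1094 to 1424, and fits of only 2 groups 528 and 2463. With a replicate block the kinase counts were 0 and 2 in Aomdv1 and 0 and 1 in Aovps1, where the 3 genes called higher had adjusted p = 0.0512 to 0.073 by limma. Over all loci the block gave 894 calls in Aomdv1 and 1178 in Aovps1. Whether the replicate numbers pair the libraries is not said in the labels. Same-numbered libraries of WT and Aomdv1 correlated in their deviations at −0.00886, 0.387 and 0.155. Those of WT and Aovps1 correlated at −0.00515, 0.0639 and 0.236, and those of Aomdv1 and Aovps1 at −0.034, −0.283 and −0.248. Not every library correlated best with its own number. With 3 libraries per group these correlations cannot decide whether the numbers mark pairs. Between the mutants 0 kinase genes were called under each alternative run. The 3 genes called higher in Aovps1 kept their sign under each alternative run but lost their call in 8 or 9 of 15. Why the counts moved was not tested. AOL_s00007g58 could not enter the test at a mean FPKM of at least 5 or without any 1 WT library.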
